A study of Arabidopsis thaliana with 16 samples.

Results

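The CHX-lost set is a group of 91 probe sets, of 22746 on the array apart from its control probe sets, whose transcripts were abundant in untreated roots and nearly gone after 4 h of cycloheximide (CHX). A probe set entered the set when its group mean of log2(intensity + 16) differed by -4 or less between CHX roots and mock roots and its mean intensity in mock roots was at least 300. The second condition removed nothing, since all 91 probe sets that met the first had mock means of 321.7 or more. The annotation lists exactly 1 gene for 44 members, several genes for 3 and none for 44, so names stand for part of the set. The members were chosen by their intensities on the CHX and mock arrays, so those values are given as a description without a test. All tests below compare the means of the other 6 groups, with a spread estimated from all 16 arrays.

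As background, CHX stalls the ribosome during elongation, so that no new protein is made. A transcript's level reflects how fast it is made and how fast it decays, and an array measures neither rate by itself. Transcripts that depend on a short-lived protein can fall within hours of such a block, while others rise. The classes with more than 1 named member include lipid transfer type proteins (5 of the 44), UDP-glycosyltransferases (4), dirigent proteins (3) and GDSL lipases (3). Lipid transfer type proteins carry lipids, and dirigent proteins guide the coupling of phenolic monomers. These classes were assigned after the values were seen, and no enrichment was tested.

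The study asked which genes are direct targets of LBD16, a LOB-domain protein that acts as lateral roots begin to form. Roots came from Arabidopsis thaliana seedlings of age 5 days, all of 1 genotype, lbd16-1 lbd18-1 lbd33-1 with gLBD16:GR, in which LBD16 is joined to the glucocorticoid receptor (GR) and driven by its own regulatory region. The steroid dexamethasone (DEX) lets such a fusion enter the nucleus, and NAA is a synthetic auxin. The 8 groups, of 2 arrays each, were NAA+DEX+CHX, NAA+DEX, NAA+CHX, NAA, DEX+CHX, DEX, CHX and mock (0.1% DMSO), with NAA at 1 µM, DEX at 2 µM and CHX at 10 µM for 4 h. All groups thus lack normal LBD16, LBD18 and LBD33, and the labels name no plants without the fusion, so an effect of DEX itself and one of LBD16 cannot be told apart. How far CHX blocked protein synthesis and the number of plants behind each array are not given in the labels.

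Median intensity was 179.2 to 189.2 on the 8 arrays with CHX and 150.9 to 174.7 on the 8 without it, and the 2% trimmed mean of the deposited intensities was 500 on each of the 16. RNA quality was read as the signal of a control transcript's 3' end over that of its 5' end. For actin it was 11.1 to 23.5 with CHX and 17.6 to 26.3 without it, for GAPDH 1.05 to 1.56 with CHX and 1.06 to 1.37 without it, and for ubiquitin 2.29 to 3.7 with CHX and 2.1 to 3.01 without it. Of 22 marker genes of root tissues only EXPA7, EXPA18 and CO2 had a listed probe set, and of 6 markers of green shoot tissue none did. The sum of the root hair expansins EXPA7 and EXPA18 was 1260 to 2104 in the 4 groups with CHX and 2729 to 4048 in the 4 without it. Both fell in all 3 CHX comparisons tested below, but EXPA7 averaged 1169 in CHX roots and 1116 in mock roots. CO2, a cortex gene, had group means of 42 to 68.8 with CHX and 32 to 48.3 without it and was not called in any of the 3. The CO2 means lay below the median intensity of every array, so CO2 says little about the tissue. No other tissue marker could be read, so the labelled tissue rests mainly on EXPA7 and EXPA18. The part of these marker genes in the results was not tested, and in whole roots fewer cells of a type and less RNA per cell cannot be told apart.

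In the comparison that chose them, which took 0.4% of all probe sets, the members kept a median of 3.26% of their mock intensity in CHX roots, with a range of 0.0439% to 5.86%. The low end of this range, and of those given later, rests on means of a few units with no detection calls. It is therefore not a reliable measure of what was left. Their mean intensities were 1.41 to 842.2 in CHX roots, with a median of 71.2, and 321.7 to 14687 in mock roots, with a median of 2517. Among members of 1 gene, those just inside the threshold of -4 were GPDHC1, UGT78D1 and AT4G38080, with CHX minus mock differences of -4.03, -4.03 and -4.04 on the log2 scale. Among other probe sets of 1 gene, those just outside it were AT4G25890, AT5G12420 and AT1G49470, at -3.92, -3.92 and -3.89. The lowest mock means among members of 1 gene were 395.4 for AT5G53990, 413.5 for AT1G16310 and 494.1 for UGT78D1.

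**Figure D1:**
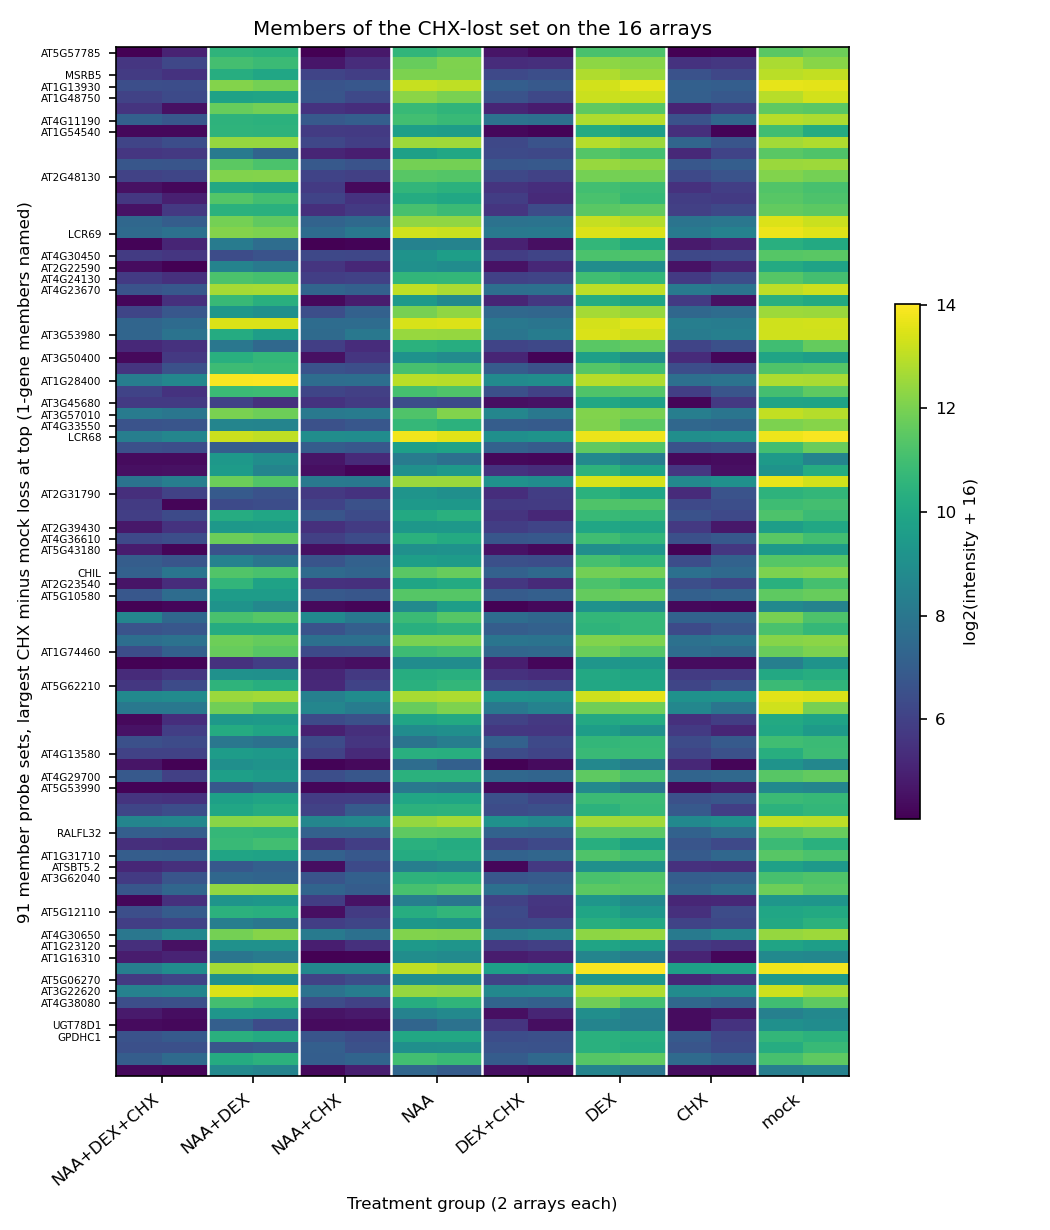
Log2(intensity + 16) of the 91 members (rows, largest CHX minus mock difference at the top, members of 1 gene named) on the 16 arrays (columns, 2 per group). Nearly all rows are darker in the 4 groups with CHX than in the matched groups without it, though some keep intermediate values there. Without CHX, many rows are darker in NAA+DEX roots than in DEX roots.

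The 8 members of 1 gene with the largest difference between CHX and mock roots show the pattern array by array. AT5G57785, a gene whose role is not assigned here, had the most negative difference of the set, -7.52. Its intensities were 0.942 and 16.2 in NAA+DEX+CHX roots, against 1456 and 1339 in NAA+DEX roots, and 0.899 and 10.1 in NAA+CHX roots, against 1556 and 2006 in NAA roots. They were 8.67 and 4.26 in DEX+CHX roots, against 2284 and 2386 in DEX roots, and 0.832 and 1.98 in CHX roots, against 2848 and 3559 in mock roots. The arrays with CHX spanned 0.832 to 16.2, where the scale carries little information, and the arrays without CHX 1339 to 3559.

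MSRB5 encodes a methionine sulfoxide reductase, an enzyme that repairs oxidised methionine in proteins. Its intensities were 40.2 and 30.1 in NAA+DEX+CHX roots, against 1225 and 963 in NAA+DEX roots, and 53.5 and 43.7 in NAA+CHX roots, against 4234 and 4278 in NAA roots. They were 60.4 and 72.2 in DEX+CHX roots, against 7238 and 5673 in DEX roots, and 78.2 and 57.8 in CHX roots, against 7989 and 8783 in mock roots. The 8 arrays with CHX spanned 30.1 to 78.2 and the 8 without it 963.2 to 8783, with NAA+DEX roots the lowest of the groups without CHX. AT1G13930, a gene linked to salt tolerance in Arabidopsis, had mean intensities of 4201 to 12618 in the groups without CHX. Its intensities were 70.9 and 70.2 in NAA+DEX+CHX roots, against 4553 and 3848 in NAA+DEX roots, and 84 and 94.3 in NAA+CHX roots, against 9299 and 8421 in NAA roots. They were 114 and 101 in DEX+CHX roots, against 10356 and 12758 in DEX roots, and 121 and 116 in CHX roots, against 12853 and 12383 in mock roots. The arrays with CHX spanned 70.2 to 121.4.

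AT1G48750 encodes a small lipid transfer type protein. Its intensities were 49.6 and 63.4 in NAA+DEX+CHX roots, against 882 and 935 in NAA+DEX roots, and 86.6 and 60.7 in NAA+CHX roots, against 5019 and 4139 in NAA roots. They were 82.7 and 59.5 in DEX+CHX roots, against 9449 and 9494 in DEX roots, and 120.0 and 97.2 in CHX roots, against 7823 and 10301 in mock roots. NAA+DEX roots again stood below the other groups without CHX. AT2G48130 encodes a lipid transfer protein with a membrane anchor (LTPG15), linked to suberin. Its intensities were 49.6 and 55.2 in NAA+DEX+CHX roots, against 4460.4 and 4628 in NAA+DEX roots, and 50.7 and 46.4 in NAA+CHX roots, against 2738 and 2571 in NAA roots. They were 59.8 and 48.7 in DEX+CHX roots, against 3855 and 3894 in DEX roots, and 61.8 and 81.5 in CHX roots, against 4503 and 3909.9 in mock roots. Its arrays without CHX spanned 2571 to 4628, with NAA+DEX roots above NAA roots.

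AT4G11190 encodes a dirigent protein. Its intensities were 124 and 92.5 in NAA+DEX+CHX roots, against 1422 and 1353 in NAA+DEX roots, and 99.1 and 116 in NAA+CHX roots, against 2052 and 1709.6 in NAA roots. They were 208 and 189.9 in DEX+CHX roots, against 7212 and 7632 in DEX roots, and 78.5 and 151 in CHX roots, against 7893 and 7128 in mock roots. NAA+DEX and NAA roots were both lower than DEX and mock roots. AT1G54540 encodes a protein of the late embryogenesis abundant hydroxyproline-rich family. Its intensities were 3.44 and 3.43 in NAA+DEX+CHX roots, against 1471 and 1414 in NAA+DEX roots, and 39.7 and 37.7 in NAA+CHX roots, against 815 and 770.2 in NAA roots. They were 3.38 and 2.2 in DEX+CHX roots, against 1118 and 784 in DEX roots, and 27 and 2.14 in CHX roots, against 1986 and 1155 in mock roots. Its arrays with CHX spanned 2.14 to 39.7 and its arrays without it 770.2 to 1986. LCR69, a plant defensin (PDF2.2), is a small cysteine-rich secreted protein. Its intensities were 166 and 204 in NAA+DEX+CHX roots, against 4573 and 4278 in NAA+DEX roots, and 174 and 246 in NAA+CHX roots, against 9984 and 9595 in NAA roots. They were 254 and 268 in DEX+CHX roots, against 11197 and 11117 in DEX roots, and 275 and 338 in CHX roots, against 13582 and 11700.5 in mock roots. Its arrays with CHX read 166.4 or more, without detection calls. The lowest value, on NAA+DEX+CHX replicate 1, lay below that array's median intensity of 179.4.

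**Figure D2:**
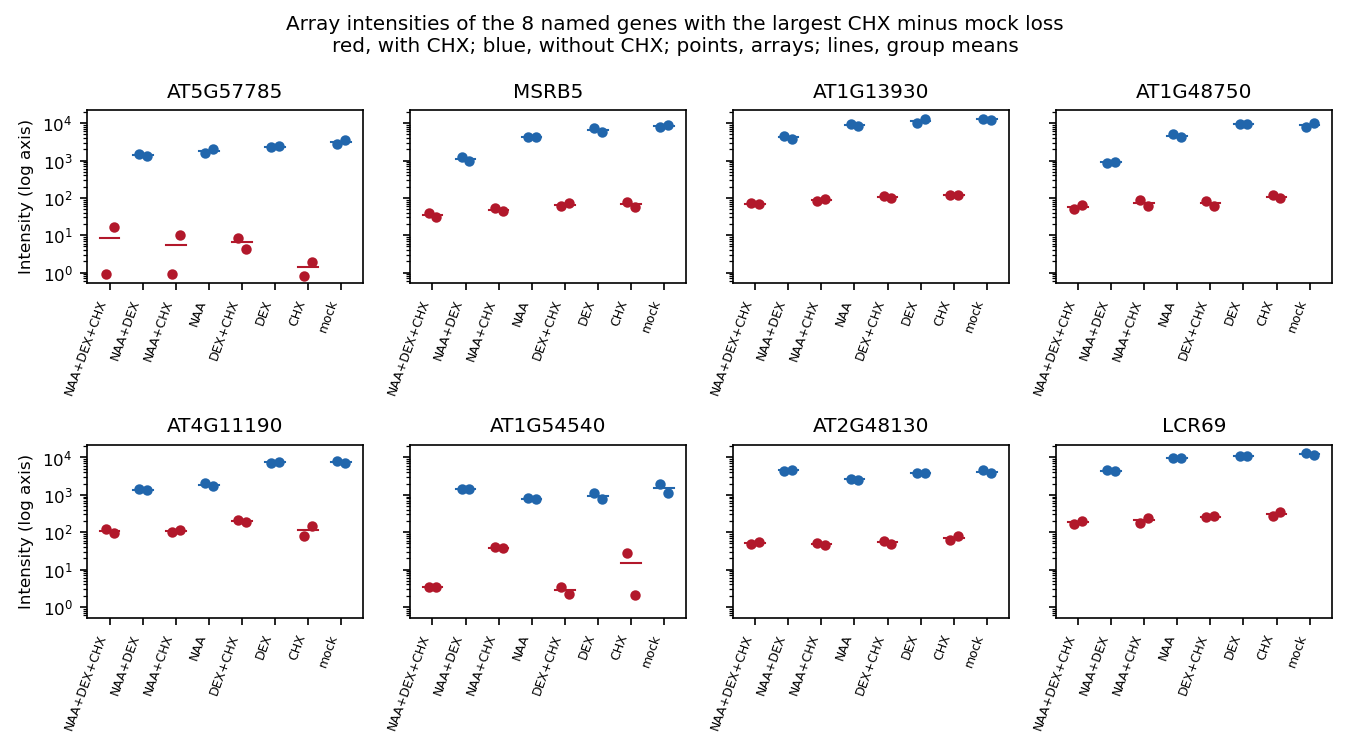
Intensity (log axis) of the 8 members of 1 gene with the largest CHX minus mock difference, by group, with 2 arrays (points) and their mean (line). Arrays with CHX are red and arrays without CHX blue, and in each of the 8 genes all red points lie below all blue points.

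The loss was then read on arrays that had no part in choosing the members. With NAA and DEX present in both groups, 89 of 91 members fell in NAA+DEX+CHX roots relative to NAA+DEX roots (adjusted p under 0.05, limma, 2 arrays per group), where 29.8% of all probe sets fell. With NAA alone in both groups 90 members fell in NAA+CHX roots relative to NAA roots, beside 28.6% of all probe sets. With DEX in both groups all 91 fell in DEX+CHX roots relative to DEX roots, beside 26.6% of all probe sets. Among the 8481 other probe sets with a mock mean of at least 300, 55.2%, 55.2% and 53.7% fell in the same order. They share that lower limit with the members, whose median mock mean was 2517, but were not matched to them on intensity. These 3 comparisons share no array with each other.

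The 3 comparisons differed somewhat in the size of the loss. The median log2 change of the members was -4 with NAA and DEX, -4.22 with NAA and -4.41 with DEX, beside -0.1, -0.06 and -0.02 over all probe sets and -0.54, -0.54 and -0.5 over the other probe sets above that mock mean. A fall of 4 or more on the log2 scale was measured for 46 members with NAA and DEX, 53 with NAA and 66 with DEX, while over all probe sets it was called for 92 (0.404%), 84 (0.369%) and 82 (0.361%). As a share of the matched group without CHX, the members kept a median intensity of 4.41% with NAA and DEX (range 0.238% to 100.4%), 3.95% with NAA (0.286% to 52.1%) and 3.29% with DEX (0.277% to 10.2%). Centring each array on its median shifted the change of all probe sets to -0.19, -0.15 and -0.23 in the same order, and the 3 counts of members stayed at 89, 90 and 91.

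**Figure D3:**
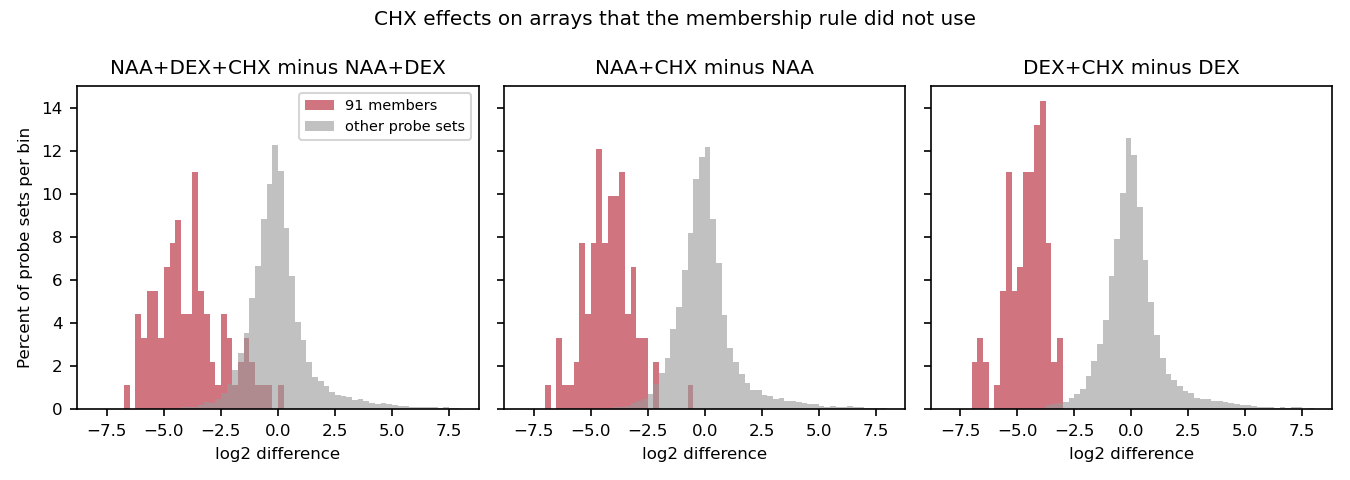
Distribution of log2 differences of the 91 members (red) and of the other probe sets (grey) in the 3 CHX comparisons that use no CHX or mock array of the membership rule, in percent of probe sets per bin of 0.25. The members centre on medians of -4, -4.22 and -4.41, and with NAA and DEX some reach values near 0.

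By the smallest p, AT1G13930, AT2G48130 and AT4G23670, a major latex protein type gene, were among the first 5 members of 1 gene in each of the 3 comparisons. With NAA and DEX their log2 changes were -5.6, -6.06 and -5.96 (adjusted p = 1.7e-10, 1.3e-10 and 2e-10, limma). With NAA they were -6.4, -5.37 and -5.7, and with DEX -6.55, -5.8 and -5.29. AT1G28400 changed by -5.47 with NAA and DEX and by -5.31 with NAA, and the defensin gene LCR68 (PDF2.3) by -4.66 and -4.75 (SE 0.14 each). With DEX, MSRB5 changed by -6.29 (SE 0.19) and AT1G48750 by -6.78 (SE 0.21).

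Both exceptions fell in NAA+DEX roots relative to DEX roots, where CHX was absent. AT3G45680 encodes NPF2.3, a nitrate transporter of the root. Its intensities were 38.6 and 37.7 in NAA+DEX+CHX roots, against 48.6 and 27.3 in NAA+DEX roots, and 30 and 39.2 in NAA+CHX roots, against 70.3 and 62.6 in NAA roots. They were 6.42 and 7.74 in DEX+CHX roots, against 1001 and 820.4 in DEX roots, and 2.61 and 37.1 in CHX roots, against 917 and 898 in mock roots. With NAA present its level was low with and without CHX, and CHX gave 0.03 with NAA and DEX (SE 0.37, adjusted p = 0.95) and -0.71 with NAA (adjusted p = 0.14), against a fall by 5.32 with DEX (adjusted p = 3.3e-07). The first of these values changed sign with median centring (-0.06), with quantile normalization (-0.07) and without NAA+DEX replicate 2 (-0.26), and the second passed at the same -0.71 in a model of the 12 arrays outside the rule and without CHX replicate 1 or replicate 2. The other member not called with NAA and DEX is a probe set with no listed gene, which measured 74.5 and 73.3 in NAA+DEX+CHX roots, against 87.4 and 103 in NAA+DEX roots (-0.31, SE 0.22, adjusted p = 0.27). With single arrays left out, 86 to 89 members fell with NAA and DEX. The call of AT2G31790 there was lost without NAA+DEX replicate 1 or replicate 2 or NAA+DEX+CHX replicate 1 (-0.86, -1.16 and -0.69), and that of ATSBT5.2 without NAA+DEX replicate 2 or either NAA+DEX+CHX array (-1.52, -1.57 and -1.77). The unlisted probe set's DEX arrays read 1304 and 1160.2 and its mock arrays 1194 and 1742.

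Where CHX was absent, NAA lowered many of the members. In NAA+DEX roots relative to DEX roots 43 of 91 members fell, 5 rose and 43 did not pass. Over all probe sets 9.82% fell and 14.1% rose. Over the 8481 other probe sets with a mock mean of at least 300, 16.98% fell and 14.99% rose. The members' median was -0.7, against 0.08 over all probe sets, with a range of -4.92 to 1.2. Median centring moved the value over all probe sets to -0.05. The largest fall of a member of 1 gene was that of AT4G30450, which encodes a glycine-rich protein. Its intensities were 39 and 34 in NAA+DEX+CHX roots, against 67.5 and 81.9 in NAA+DEX roots, and 59.1 and 57.5 in NAA+CHX roots, against 567 and 782 in NAA roots. They were 43.4 and 53.1 in DEX+CHX roots, against 2302 and 2432 in DEX roots, and 58.3 and 60 in CHX roots, against 2650.2 and 2779.9 in mock roots. It fell by 4.72 on the log2 scale (SE 0.16, adjusted p = 3.8e-08).

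AT3G62040, a haloacid dehalogenase-like hydrolase gene, measured 144 ± 9.82 in NAA+DEX roots and 2421 ± 193 in DEX roots (SD, n = 2 arrays each) and fell by 3.93 on the log2 scale (limma, adjusted p = 1.7e-06). Of the lipid transfer type members, AT3G53980, AT1G48750 and AT4G33550 changed by -3.44, -3.36 and -3.21 (SE 0.24, 0.21 and 0.18). The nitrate transporter gene AT3G45680 fell by 4.12. The rises were smaller: AT1G28400 rose by 1.08 (SE 0.14, adjusted p = 0.00032), AT4G36610, an alpha/beta hydrolase gene, by 0.88 (adjusted p = 0.01) and AT3G22620, which encodes a membrane-anchored lipid transfer protein, by 0.6 (adjusted p = 0.034). The other 2 rises have no listed gene. Leaving out DEX replicate 1 gave 3 rises in place of 5, DEX replicate 2 gave 1, NAA+DEX replicate 1 gave 1 and NAA+DEX replicate 2 gave 2. The call of AT3G22620 was lost without any 1 of these 4 arrays and with median centring (0.47), and that of AT4G36610 without DEX replicate 2 (0.7) or NAA+DEX replicate 1 (0.78).

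In roots that had NAA, DEX lowered some members and raised others. In NAA+DEX roots relative to NAA roots 23 members fell and 7 rose, beside 1.71% and 1.22% of all probe sets, and 61 did not pass. Over the 8481 other probe sets with a mock mean of at least 300, 2.42% fell and 1.33% rose. The median of the members was -0.32 (range -3.2 to 1.73) and that of all probe sets -0.02. AT3G62040 measured 151 and 137 in NAA+DEX roots and 1422 and 1355 in NAA roots, a fall by 3.13 on the log2 scale (SE 0.25, adjusted p = 0.00013). AT4G30450 fell by 2.91 (SE 0.16, adjusted p = 3.4e-05). AT3G53980, AT1G48750 and AT4G33550 changed by -2.57, -2.31 and -1.98, and their NAA+DEX arrays read 1142 and 771, 882 and 935 and 376 and 359. In NAA roots the same 3 genes read 5735 and 5546, 5019 and 4139 and 1631 and 1375, each above both NAA+DEX arrays of its gene.

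AT4G36610 rose by 1.38 (SE 0.2, adjusted p = 0.004), with 3458 and 3009.8 in NAA+DEX roots and 1343 and 1125 in NAA roots. AT1G28400 rose by 0.98 (adjusted p = 0.0038): it read 15606 and 15896 in NAA+DEX roots, against 8121 and 7875 in NAA roots, and was higher there than in mock roots, which read 7023 and 6864. AT3G22620 and AT2G48130, both genes of anchored lipid transfer proteins, rose by 0.99 and 0.77 (adjusted p = 0.014 and 0.015, limma), and each call was lost without any 1 of the 2 NAA or 2 NAA+DEX arrays. Leaving out NAA replicate 1 gave 4 rises in place of 7, NAA replicate 2 gave 2, NAA+DEX replicate 1 gave 2 and NAA+DEX replicate 2 gave 3. An offset of 1 in place of 16 gave 4, an offset of 64 gave 15, and a robust prior with an intensity trend gave 11. The 3 other rises have no listed gene.

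**Figure D4:**
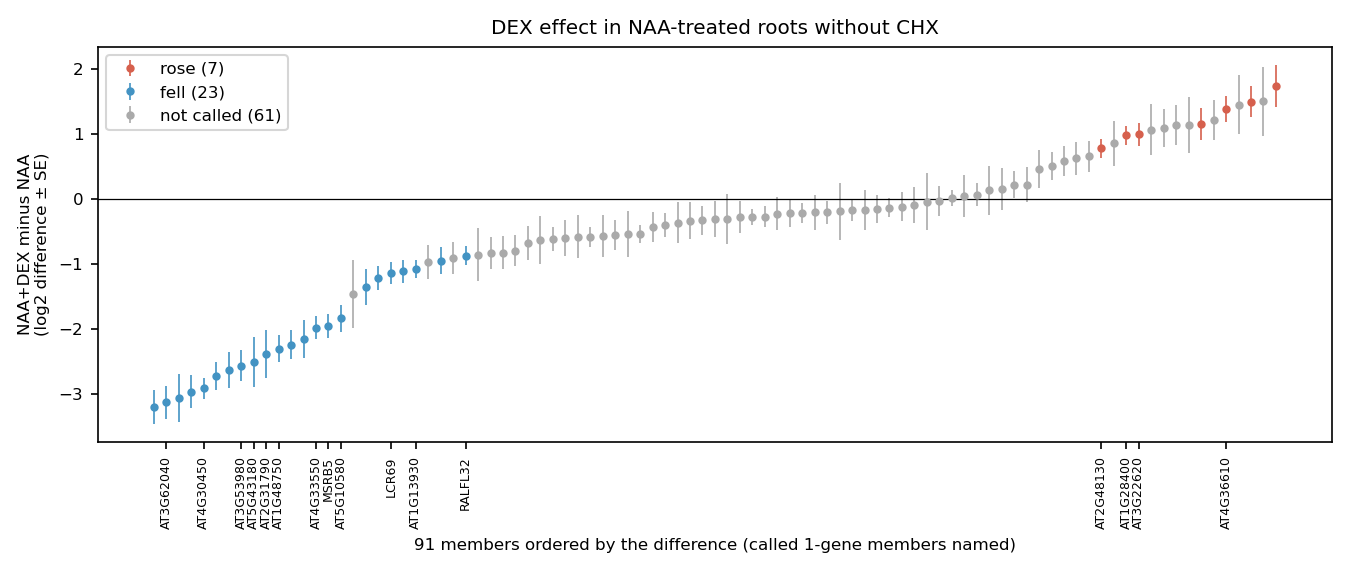
Log2 difference between NAA+DEX and NAA roots (± SE of the model) for the 91 members in order of that difference, with called members of 1 gene named. The 23 falls (blue) reach -3.2 and the 7 rises (red) 1.73, and 61 members (grey) were not called.

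Arranged by what the proteins do, a grouping made after the values were seen, members of 1 family were not all called the same way. No test compared 1 member with another. Of 5 lipid transfer type genes all 5 were called for DEX in NAA-treated roots, where 1.71% of all probe sets fell and 1.22% rose. AT1G48750, AT3G53980 and AT4G33550 fell, and AT2G48130 and AT3G22620 rose. Both rises lost their call without any 1 of the NAA or NAA+DEX arrays. Of 3 dirigent genes, AT4G11190 and AT4G13580 fell with NAA in DEX-treated roots (-2.41 and -1.3), while AT2G39430 gave -0.51 (adjusted p = 0.29), and none of the 3 passed for DEX in NAA-treated roots (values -0.43, -0.83 and 0.04). The GDSL lipase genes AT3G50400, AT1G74460 and AT2G23540 were called in neither comparison, with NAA values of 1.2, -0.01 and -0.8 and DEX values of 1.5, 0.58 and 0.15.

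UDP-glycosyltransferases attach sugars to small molecules. UGT78D1, which adds rhamnose to flavonols, and AT5G53990 changed with NAA in DEX-treated roots by -1.75 and -1.31. AT2G31790 (UGT74C1), an enzyme linked to glucosinolates, fell by 3.42 in that comparison and by 2.39 with DEX in NAA-treated roots, a call that was lost without NAA replicate 1 (-2.29). AT2G22590 gave -0.66 and -0.68 without passing. The call of UGT78D1 was lost when DEX replicate 1 (-1.66) or NAA+DEX replicate 2 (-1.38) was left out and with an offset of 1 (-1.92).

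The 2 defensin genes LCR69 and LCR68 are separated by 2 protein-coding genes in the RefSeq order of assembly TAIR10.1, and no other pair of the 44 named members lay within 10 genes of each other. Near-identical copies can share signal on an array, which was not tested here. LCR69 fell by 1.33 with NAA in DEX-treated roots and by 1.14 with DEX in NAA-treated roots, while LCR68 fell by 0.6 in the first and gave -0.54 in the second (adjusted p = 0.078). LCR68 read 9469.7 and 8599 in NAA+DEX roots, against 13635 and 13707 in DEX roots, and its call was lost without DEX replicate 1 or replicate 2 or NAA+DEX replicate 2 (-0.6, -0.59 and -0.53). RALFL32, a gene for a signal peptide of the RALF family, changed by -0.84 and -0.87 in the same order, and the second call was lost without any 1 of its 4 arrays.

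The remaining enzymes and transporters were also not all called the same way. MSRB5 fell by 2.54 with NAA in DEX-treated roots and by 1.95 with DEX in NAA-treated roots. AT1G31710, a copper amine oxidase gene, AT4G29700, an alkaline phosphatase-like gene, and the subtilase gene ATSBT5.2 changed with NAA by -1.29, -1.76 and -2.09, the last call being lost without DEX replicate 1, DEX replicate 2 or NAA+DEX replicate 1 (-2.1, -2.08 and -1.94) and with an offset of 1 (-2.24). CHIL, a chalcone isomerase-like gene of flavonoid synthesis, GPDHC1, a glycerol-3-phosphate dehydrogenase gene, and AT3G57010, a strictosidine synthase-like gene, were not called in either comparison, with -0.65, -0.07 and -0.14 for NAA and -0.33, 0.22 and 0.22 for DEX. AT1G16310, a metal transporter gene, gave -0.3 and -0.8. Of the remaining named members AT4G24130 gave 0.32 and 0.5 and AT4G23670 -0.33 and -0.22, none of them passing. AT5G10580 and AT5G43180 changed with NAA by -2.18 and -2.56 and with DEX by -1.84 and -2.51, and both calls of AT5G43180 were lost with an offset of 1 (-2.77 and -2.72).

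Under CHX few members were called for NAA or DEX. Their median mean intensity was 52.4 in NAA+DEX+CHX roots, 55.5 in NAA+CHX roots and 62 in DEX+CHX roots. Whether such levels hid further changes was not tested. Calls were also few over the 8481 other probe sets with a mock mean of at least 300. Of these, NAA with DEX and CHX lowered 0.743% and raised 0.389%, and DEX with NAA and CHX 0.0118% and 0.0825%. In NAA+DEX+CHX roots relative to DEX+CHX roots 3 members fell and 0 rose (limma, 30 at an unadjusted p under 0.05), beside 0.536% of all probe sets that fell and 0.642% that rose. The median of the members was -0.28 and 70 of 91 values were negative, while the median of all probe sets was 0. AT4G23670 fell by 1.0 (SE 0.15, adjusted p = 0.019): it read 82.5 and 96.8 in NAA+DEX+CHX roots and 193 and 196 in DEX+CHX roots, and its call was lost without any 1 of these arrays. The other 2 falls have no listed gene. The 3 falls became 0 without DEX+CHX replicate 1 or replicate 2, and 13 with a filter on low values or with a robust prior and intensity trend.

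In NAA+DEX+CHX roots relative to NAA+CHX roots 0 members fell and 0 rose by limma (15 at an unadjusted p under 0.05), beside 0.0176% and 0.0923% of all probe sets. The members' median was -0.08, with a range of -1.58 to 1.57. AT1G28400, which DEX raised in NAA-treated roots without CHX, read 294 and 393 in NAA+DEX+CHX roots and 183 and 188 in NAA+CHX roots, a log2 difference of 0.82 (SE 0.14, adjusted p = 0.09). AT4G30450 gave -0.5 and AT3G62040 -0.64 in the same comparison.

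**Figure D5:**
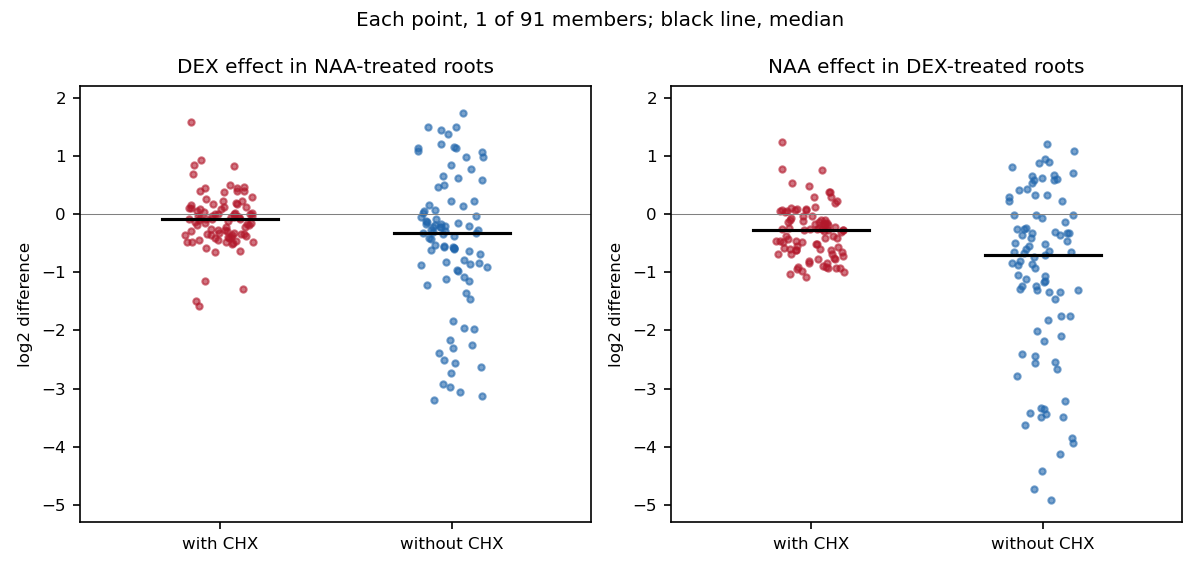
Log2 differences of the 91 members for DEX in NAA-treated roots (left) and NAA in DEX-treated roots (right), with CHX (red) and without it (blue), with black lines at the medians. The medians are -0.08 with CHX and -0.32 without it for DEX, and -0.28 with CHX and -0.7 without it for NAA, and the points spread more widely without CHX.

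Interaction tests ask whether the CHX loss itself differed, and a positive value means a smaller loss with the added agent. It is also the effect of that agent with CHX minus its effect without CHX. A fall with that agent that is seen only without CHX thus gives a positive value. For AT4G30450 the NAA effect was -0.29 with CHX and -4.72 without it, and the interaction 4.43. Between DEX roots with NAA and DEX roots without it the loss was smaller for 30 members and larger for 4. These shares were 4.32% and 4.95% over all probe sets. Over the 8481 other probe sets with a mock mean of at least 300 they were 7.1% and 5.33%. AT3G45680, AT4G30450, AT3G62040, AT1G48750 and AT4G33550 gave 5.35, 4.43, 3.32, 3.1 and 2.89, each with a lower level without CHX when NAA was present, as given above. AT1G28400 and AT4G36610 gave -1.5 and -1.26, and the other 2 larger losses have no listed gene. The 4 became 1 without DEX replicate 2, and 2 without either DEX+CHX array, either NAA+DEX array or NAA+DEX+CHX replicate 1. The call of AT4G36610 was lost without DEX replicate 2, either DEX+CHX array, NAA+DEX replicate 1 or NAA+DEX+CHX replicate 1 (-1.09, -1.3, -1.23, -1.16 and -1.16).

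Between NAA roots with DEX and NAA roots without it the loss was smaller for 14 members and larger for 1. These shares were 0.33% and 0.339% over all probe sets. Over the 8481 other probe sets with a mock mean of at least 300 they were 0.531% and 0.307%. AT3G62040, AT4G30450, AT5G10580, AT1G48750 and AT4G33550 gave 2.49, 2.41, 2.24, 2.01 and 1.98 (limma, adjusted p = 0.011, 0.0027, 0.0088, 0.012 and 0.0088). The 1 larger loss has no listed gene. It was not called with an offset of 1, nor without either DEX+CHX, NAA or NAA+DEX array, NAA+CHX replicate 2 or NAA+DEX+CHX replicate 2. Leaving out NAA replicate 1 gave 7 smaller losses in place of 14, NAA replicate 2 gave 9 and NAA+DEX+CHX replicate 1 gave 9, while offsets of 1 and 64 gave 9 and 22. The call of AT3G62040 was lost without NAA replicate 1 (2.46) or NAA+CHX replicate 1 (2.26) and with an offset of 1 (2.47), and that of AT1G48750 without NAA replicate 1, NAA+CHX replicate 2, NAA+DEX replicate 1 or NAA+DEX+CHX replicate 2 (1.87, 1.8, 1.97 and 1.87).

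The comparisons with mock or CHX arrays repeat the arrays of the rule and are given without a test. NAA minus mock had a median of -0.7 over the members (range -3.49 to 0.58), and 24 of 91 were at -1 or less and 0 at 1 or more. DEX minus mock had a median of -0.17 (range -1.03 to 0.54). Under CHX, NAA+CHX minus CHX had a median of -0.3 and DEX+CHX minus CHX one of -0.09.

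Of 20 gene lists for root wall, barrier, transport and signalling genes, matched by symbol, 18 had a measured probe set and 2 had a member. With 0.4% of all probe sets in the set and lists of 1 to 64 measured probe sets, a list without a member says little. The glycosyltransferase list, with UGT78D1, had 51 probe sets, of which 12 fell and 15 rose under CHX with NAA and DEX, 16 fell and 12 rose with NAA, and 18 fell and 12 rose with DEX. The list of small secreted peptides, with RALFL32, had 21, of which 5 fell and 4 rose, 6 fell and 4 rose, and 4 fell and 7 rose in the same order. Over all probe sets 29.8% fell and 22.3% rose with NAA and DEX, 28.6% fell and 22% rose with NAA, and 26.6% fell and 24.2% rose with DEX. The lists' medians lay between -0.18 and 0.05 on the log2 scale. The lists find genes by symbol alone and miss members of their own classes: they hold 1 of the 4 UDP-glycosyltransferase members, neither of the transporter genes AT3G45680 and AT1G16310, and not the member listed for both AT2G38380 and AT2G38390, which are class III peroxidase genes. That member and the transporters are named here after their values were seen.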

How the data were processed

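The authors deposited linear intensities, 1 value for each probe set on each of 16 single-colour arrays hybridised with biotinylated cRNA, made with Affymetrix Expression Console 1.3 per the submitters' processing notes. The summary method, background correction and scaling are not given in the sources used here, and the 2% trimmed mean of the deposited intensities was 500 on every array. Here 64 control probe sets were removed, and log2(intensity + 16) of the other 22746 was fitted for all 16 arrays in 1 group-means model in limma 3.58.1 under R 4.3.3, leaving 8 residual degrees of freedom. Adding 16 understates the changes of dim probe sets, and there are no detection calls. Tests were two-sided and passed at a Benjamini-Hochberg adjusted p under 0.05, with the adjustment made within each comparison across the 22746 probe sets. The 9 comparisons share arrays in part. The model was also run on simulated data with normal noise and no lower limit of intensity. That run cannot show how the model treats dim probe sets.

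Groups came from the sample titles. Both arrays of a group are labelled as independent, without the source of independence, so a p-value reflects only how far such samples spread, and 2 arrays per group limit the precision. Same-numbered arrays deviated from their group means with correlations of -0.06 to 0.07 over 28 pairs of groups and were not treated as pairs.

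Probe sets were named from the platform annotation and the RefSeq table of TAIR10.1, which held all 44 genes of members with 1 gene. The members, lists and tests were chosen with earlier results of these data known. By rule the text names the 20 members of 1 gene with the largest CHX minus mock difference, the first 8 by array, up to 5 called members per direction and comparison by smallest p, list members, those next to the threshold and those not called for CHX. The other members, and those grouped by role, were chosen after their values were seen. Alternatives were the offset, scaling, a filter, a replicate block, the 12 arrays outside the rule, an intensity trend and single arrays left out. No sequences were used here.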

Additional observations from a re-analysis of the deposited data

Results flagged for a closer look

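For 10 of the named values the loss under CHX was smaller with NAA or DEX added, by a test of the interaction itself. In each, the level without CHX was lower with that agent. With NAA in DEX-treated roots these were AT3G45680 (5.35), AT4G30450 (4.43), AT3G62040 (3.32), AT1G48750 (3.10) and AT4G33550 (2.89). With DEX in NAA-treated roots they were AT3G62040 (2.49), AT4G30450 (2.41), AT5G10580 (2.24), AT1G48750 (2.01) and AT4G33550 (1.98). For AT1G28400 and AT4G36610 the loss was larger with NAA in DEX-treated roots, with interactions of -1.50 and -1.26 on the log2 scale. In AT4G30450, for example, the NAA effect was -0.29 with CHX and -4.72 without it, and AT3G45680 averaged 38.1 in NAA+DEX+CHX roots and 38 in NAA+DEX roots. These interactions by themselves do not show that more transcript was kept under CHX. For AT3G45680 the NAA effect with DEX and CHX was 1.23 and was not called (limma, adjusted p = 0.17). The members were not chosen on any array in these contrasts, and what lies behind the differences was not tested.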

How the results depend on the processing

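The counts of members that fell in the 3 CHX comparisons were 86 to 91 of 91 in the alternatives that tested all members, and 66 or 67 of 67 with the filter on low values. The number of members itself was 122 with an offset of 1, 42 with an offset of 64, 107 with median centring and 98 with quantile normalization. Without single CHX or mock arrays it was 87 to 92, of which 79 to 83 were among the 91. With an offset of 64, the rises were 10 for NAA with DEX and 15 for DEX with NAA, the falls 5 for NAA under CHX with DEX, and the CHX by DEX interaction gave 8 larger and 22 smaller losses. With an offset of 1 the rises for DEX with NAA were 4, and that interaction gave 0 and 9. With the intensity trend and robust prior, rises for DEX with NAA were 11, falls for NAA under CHX 13, DEX under CHX gave 1 fall and 1 rise, and larger losses were 7 in each interaction. With the filter, which kept 67 members, NAA under CHX gave 13 falls and 1 rise, DEX under CHX 1 and 1, and larger losses were 7 for CHX by NAA and 2 for CHX by DEX. The replicate block, which treats same-numbered arrays as pairs, gave 2 larger losses for CHX by DEX in place of 1 and moved no other count over 1.5 times. The 12 arrays outside the rule gave 1 rise for NAA under CHX and 1 fall for DEX under CHX. The causes were not tested.

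With 1 array left out, rises were 1 to 5 for NAA with DEX and 2 to 8 for DEX with NAA. Under CHX, NAA gave 0 to 4 falls and 0 to 1 rises, and DEX 0 to 1 falls. Larger losses were 1 to 5 for CHX by NAA and 0 to 1 for CHX by DEX, and smaller ones 7 to 16 for CHX by DEX. Of 48 values of named members, AT3G45680 for CHX with NAA and DEX changed sign: it was 0.03, against -0.058 with median centring, -0.069 with quantile normalization, and -0.256 to 0.322 with single arrays left out. Low intensities limit what can be read: members at a few units under CHX have no reliable order.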
